A study of Homo sapiens with 6 samples.

Results

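The genes described here encode core splicing factors and heterogeneous nuclear ribonucleoproteins (hnRNPs), and they were compared between A549-TIPARP cells and A549-GFP cells. They were chosen by symbol: every SRSF gene, every HNRNP gene, SF3A1 to SF3A3, SF3B1 to SF3B6, U2AF1 and U2AF2, every SNRP gene and every numbered PRPF gene. Of the 53826 entries in the deposited tables, 254 had such a symbol, and 70 of these were among the 13181 genes above 2 TPM in at least 1 of the 6 libraries. TPM expresses how large a part of the sequenced transcripts belonged to a gene, after correction for gene length. The cells were A549, an established line from a human adenocarcinoma of the lung. In A549-TIPARP cells the coding region of TIPARP, an enzyme that adds single ADP-ribose units to proteins, was delivered by the retroviral vector pMXs. A549-GFP cells carry green fluorescent protein in the same vector, so both lines were transduced with a retrovirus and differ in the transgene. The labels describe each as a stable line, and whether either began from 1 clone is not given in the sources used here. RNA from 3 experiments of each line was sequenced, and no source says that these were separate transductions, so p-values measure the spread between these libraries. Libraries of the same line were unequal in these genes. A549-TIPARP library 3 was the lowest of its line for 62 of the 70 (46.9% of all genes). A549-GFP library 2 was the lowest for 35 and the highest for 20, against 21.5% and 62.5% of all genes, so differences without one or both of them stand beside most of the genes named below.

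Introns are removed from pre-mRNA by the spliceosome. The U1 and U2 small nuclear ribonucleoproteins (snRNPs) first mark the 5′ splice site and the branch point, U2AF binds the end of the intron, and the U4/U6.U5 tri-snRNP then joins and is rearranged into the active enzyme. SR proteins, which carry arginine and serine repeats, mostly bind exons and favour their inclusion, whereas many hnRNPs coat the nascent RNA and compete with them. Genes of this machinery are transcribed in nearly all cells, and many of them are more active in dividing cells than in resting ones.

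None of the 70 splicing genes differed between the lines by the criteria applied. The number with an adjusted p under 0.05 in limma, a linear model fitted across all genes that tests the difference against the spread between libraries, was 0 of 70, where 2 of all 13181 genes passed (0.0152%). At an unadjusted p under 0.05 it was again 0 of 70, against 508 of all genes (3.85%). No splicing gene was more than 1.5-fold higher in A549-TIPARP cells, against 5.7% of all genes, and none was more than 1.5-fold lower, against 3.02% of all genes. None passed 2-fold in either direction (1.96% of all genes). In no splicing gene did the 3 A549-TIPARP libraries all lie above the 3 A549-GFP libraries (5.36% of all genes) or all below them (3.54% of all genes). These counts rested in part on single libraries. Without A549-GFP library 3, HNRNPA1 and HNRNPA1P10 were more than 1.5-fold higher (2 genes) and PRPF3, PRPF38B, PRPF4B and PRPF39 more than 1.5-fold lower (4 genes), and 6 genes had an unadjusted p under 0.05 (lowest limma adjusted p = 0.582). In that fit 6.37% of all genes were past the limit upwards, 10.5% downwards and 8.23% had an unadjusted p under 0.05, close to the 8.57% of the splicing genes. Without A549-GFP library 1, HNRNPA1 was past the limit upwards (limma unadjusted p = 0.0472, adjusted p = 0.998) and PRPF3 downwards, against 6.9% and 5.87% of all genes. Without A549-TIPARP library 2, U2AF1 was past it downwards, against 3.97% of all genes. Without both A549-GFP library 2 and A549-TIPARP library 3, none of the 70 genes passed either limit, against 6.91% of all genes upwards and 1.41% downwards. The depth of the libraries is unknown, because TPM keeps no read numbers. The median 95% confidence interval of a splicing gene reached 0.50 on the log2 scale to either side of its estimate. With 3 libraries per line, smaller differences would therefore mostly not reach an unadjusted p under 0.05 in limma. The adjusted p over all 13181 genes asks for larger differences still, so changes above 0.50 could also have been missed.

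The limma test did separate the transgene. TIPARP itself was at 6.79, 11.4 and 3.68 TPM in A549-GFP libraries 1 to 3 and at 131, 90.5 and 123 TPM in A549-TIPARP libraries 1 to 3, and every A549-TIPARP library lay above every A549-GFP library. This was 17.2-fold higher (limma adjusted p = 0.0125). All 7 epithelial markers of A549 were above 2 TPM, and their summed level was 19726 to 32503 TPM across the libraries. All 7 endothelial markers were at the floor of the tables in all 6 libraries, and so were 4 of the 7 markers of mesenchymal stem cells, namely COL3A1, DCN, PDGFRB and THY1. The study cultured endothelial and stem cells beside A549 in other experiments. The sum of the stem cell markers was 14.5, 35.8 and 18.9 TPM in A549-GFP libraries and 20.1, 28.9 and 41.3 TPM in A549-TIPARP libraries, and ACTA2, which other cells also express, made up most of it. COL1A1 and ACTA2, the 2 above 2 TPM, had log2 differences of 0.68 and 0.42 (lowest limma adjusted p = 0.994). Without both A549-GFP library 2 and A549-TIPARP library 3 these were 0.34 and 0.56. In 1 of the 2 genes every A549-TIPARP library lay above every A549-GFP library, against 5.36% of all genes. The floor is a log2 value of 0, or 1 TPM, the lowest in the tables. It was read from the values as standing for any TPM of 1 or less, which no source used here states.

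As a group, the splicing genes had nearly the same median difference as all genes with all 6 libraries, but not with A549-GFP library 2 left out. The difference of the mean log2 TPM of the lines, A549-TIPARP minus A549-GFP, had a median of -0.06 over the 70 genes, with an interquartile range from -0.20 to 0.04 and a full range from -0.50 to 0.48. Over all 13181 genes the median was -0.07, with an interquartile range from -0.22 to 0.13. The A549-TIPARP mean was the lower for 48 of the 70 genes, a share of 68.6%, against 59.9% of all genes. After median-ratio scaling of the libraries 35 of 70 were lower, against 51.3% of all genes. These values depended on single libraries. Without A549-GFP library 2 the median was -0.15 for the splicing genes and 0.05 for all genes, and 54 of 70 were lower against 42.6% of all genes. Without A549-TIPARP library 3 the medians were 0.05 and -0.04, and 29 of 70 were lower against 55.5% of all genes. Without both libraries the medians were -0.02 and 0.06, and 42 of 70 were lower against 36.9% of all genes. By class, the median log2 difference was -0.09 for 11 SR protein genes, 0.01 for 23 hnRNP genes, -0.13 for 11 SF3 and U2AF genes, -0.06 for 12 snRNP protein genes and -0.22 for 13 PRPF genes.

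**Figure D1:**
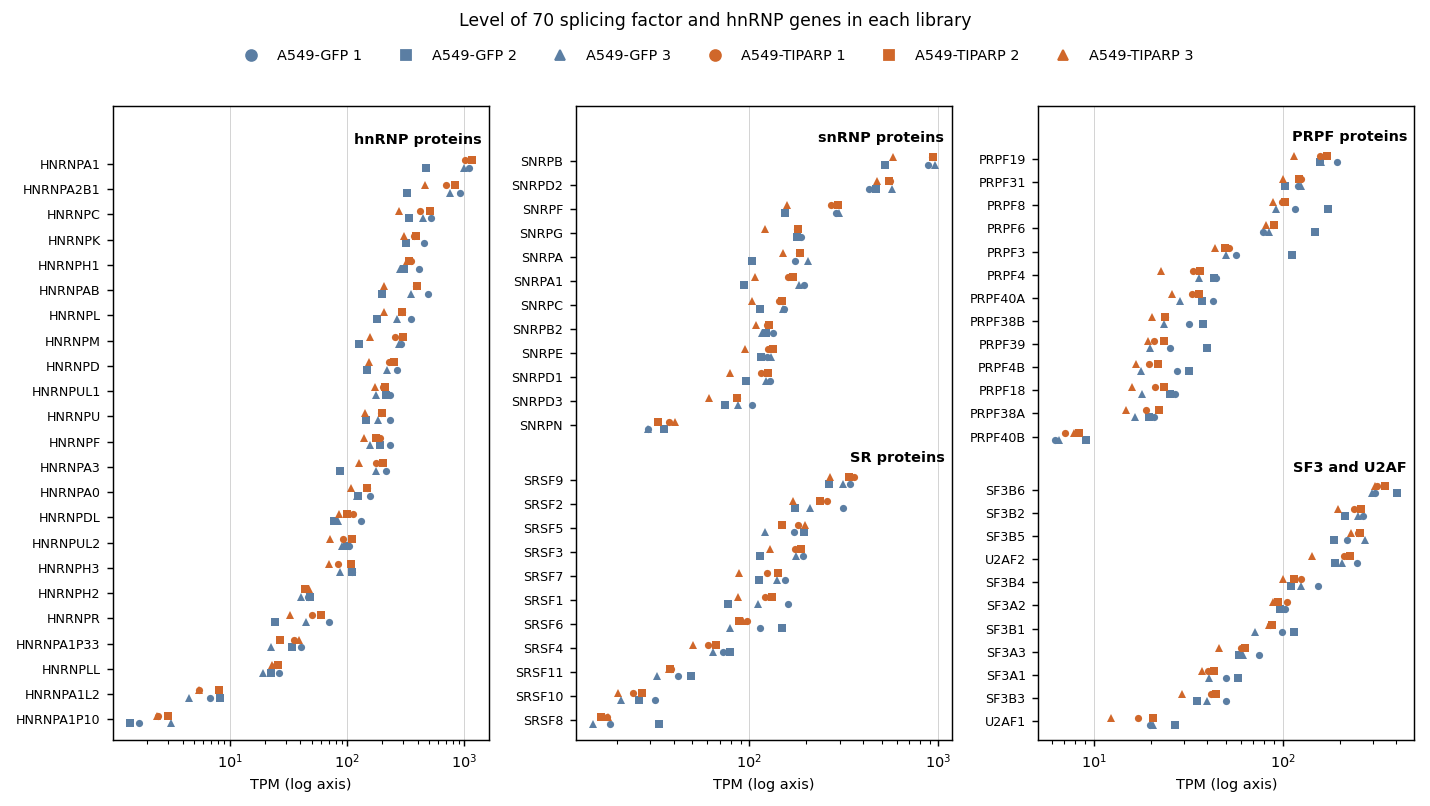
TPM (horizontal log axis) of the 70 splicing genes in the 3 A549-GFP libraries (blue) and the 3 A549-TIPARP libraries (orange), 1 row per gene, ordered by level within class. The colours overlap in every row, and HNRNPA1 has the highest level, with A549-GFP library 2 at 468 TPM well to the left of the other 5 libraries.

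The levels of these genes ran from 2.26 to 942 TPM as geometric means over the 6 libraries. Since TPM is corrected for transcript length, levels can be set side by side between genes. The highest was that of HNRNPA1, which binds nascent RNA and represses exons. SNRPB followed at 774 TPM. It encodes a protein of the Sm ring, the collar of 7 proteins around the U1, U2, U4 and U5 snRNAs. HNRNPA2B1, a relative of HNRNPA1, was at 627 TPM and SNRPD2, of the Sm ring, at 503 TPM. Among SR proteins SRSF9 was highest at 311 TPM, among SF3 and U2AF genes SF3B6 at 329 TPM and among PRPF genes PRPF19 at 157 TPM. Neighbours in this order often lay within the spread of the libraries: HNRNPA1 ranged from 468 to 1165 TPM and SNRPB from 519 to 955 TPM, so their order was not fixed. The median within-line standard deviation of a splicing gene was 0.28 on the log2 scale, against 0.33 for all genes and 0.25 for the 2570 genes with a mean level inside the interquartile range of the splicing genes.

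The 184 entries that were not analysed were mostly processed copies. RefSeq calls 178 of them pseudogenes and 6 protein-coding, and 183 were at the floor in all 6 libraries. The exception was SRSF12, an SR protein gene with a highest value of 1.44 TPM. The other 5 protein-coding entries were HNRNPA1P48 and HNRNPCL1, HNRNPCL2, HNRNPCL3 and HNRNPCL4. Of the 70 analysed genes, 69 were above 2 TPM in every library. The other was the pseudogene HNRNPA1P10, which was above 2 TPM in 4 libraries.

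Several entries share so much sequence with another gene that a read cannot say which of them it came from, and the treatment of such reads is not given in the sources used here. The stretches below are coding bases of HNRNPA1 and the aligned bases of its 3 analysed copies, read from GENCODE 44 transcripts on hg38. They are shown because the entries with the highest and second highest difference between the lines, HNRNPA1 and HNRNPA1P10, have the same bases here. Capitals mark a base that differs from HNRNPA1.
HNRNPA1, coding bases 421 to 480, plus strand, chr12:54282231-54282290: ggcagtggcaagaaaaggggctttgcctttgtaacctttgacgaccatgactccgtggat
HNRNPA1L2, plus strand, chr13:52642913-52642972: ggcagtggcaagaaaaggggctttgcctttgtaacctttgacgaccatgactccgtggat
HNRNPA1P10, minus strand, chr19:11666551-11666610: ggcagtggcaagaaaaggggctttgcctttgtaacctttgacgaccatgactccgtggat
HNRNPA1P33, plus strand, chr10:46415877-46415936: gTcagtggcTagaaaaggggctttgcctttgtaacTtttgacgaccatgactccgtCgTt
HNRNPA1L2 and HNRNPA1P10 had 0 differences in these 60 bases and HNRNPA1P33 had 5. Of all 50-base words of the canonical transcript, 32.7% were found in other genes for HNRNPA1, 100% for HNRNPA1L2, 88.5% for HNRNPA1P10 and 24.8% for HNRNPA1P33. The values of these 4 entries are therefore uncertain. Shared words also made up 45.3% of HNRNPUL2, all of them in the read-through entry HNRNPUL2-BSCL2, 41.6% of SNRPA1, 37.4% of HNRNPL, 29.3% of SRSF1 and 24.2% of SNRPG. HNRNPUL2 and HNRNPUL2-BSCL2 had log2 differences between the lines of -0.13 and -0.19.

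U2AF1, the small subunit of U2AF, which reads the AG at the end of an intron, has a copy in hg38 under the name U2AF1L5. Its stretch is shown because the 2 entries were listed at unlike levels although the copy holds all 720 coding bases of U2AF1 with 0 differences.
U2AF1, coding bases 61 to 120, minus strand, chr21:43104327-43104386: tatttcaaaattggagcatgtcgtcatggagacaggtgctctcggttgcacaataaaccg
U2AF1L5, minus strand, chr21:6496005-6496064: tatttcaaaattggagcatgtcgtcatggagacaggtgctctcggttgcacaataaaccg
Of the 50-base words of U2AF1, 98.7% were found in other genes, so how the reads were divided between the 2 entries cannot be seen in these values.

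HNRNP genes held both the highest level and the highest difference between the lines. HNRNPA1 (chromosome 12, 54280193 to 54287088, plus strand, 11 exons) was at 1098, 468 and 989.9 TPM in A549-GFP libraries 1 to 3 and at 1022, 1165 and 1154 TPM in A549-TIPARP libraries 1 to 3. A549-GFP library 2 was low and the other 5 libraries lay close together, so the lines overlapped. The mean log2 TPM was 9.64 ± 0.67 (SD, n = 3) and 10.12 ± 0.11 (SD, n = 3), a log2 difference of 0.48 (1.39-fold; limma adjusted p = 0.994). Without A549-GFP library 2 the log2 difference was 0.09. The pseudogene HNRNPA1P10 was at 1.68, 1.43 and 3.16 TPM in A549-GFP libraries and at 2.44, 3.00 and 2.40 TPM in A549-TIPARP libraries, close to the floor in all of them. Its log2 difference was 0.40 (limma adjusted p = 0.994), and 0.17 without A549-GFP library 2. The copies HNRNPA1L2 and HNRNPA1P33 differed by -0.02 and 0.07.

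HNRNPA3 and HNRNPR, a relative of HNRNPA1 and an RNA-binding partner of many mRNAs, showed the same low library. HNRNPA3 was at 215, 87.0 and 178 TPM in A549-GFP libraries and at 178, 202 and 127 TPM in A549-TIPARP libraries. HNRNPR was at 70.5, 24.5 and 44.7 TPM in A549-GFP libraries and at 50.4, 60.7 and 32.8 TPM in A549-TIPARP libraries. In both genes A549-GFP library 2 was the lowest of all 6 and A549-TIPARP library 3 the lowest of its line. The log2 differences were 0.16 and 0.13, and without A549-GFP library 2 they changed sign, to -0.23 and -0.27. The lowest difference among hnRNP genes was that of HNRNPH3, which binds G-rich RNA. It was at 111, 111 and 86.5 TPM in A549-GFP libraries and at 84.2, 109 and 70.3 TPM in A549-TIPARP libraries, a log2 difference of -0.24 with overlapping lines, and of -0.09 without A549-TIPARP library 3. The A549-TIPARP mean was the lower for 11 of the 23 hnRNP genes, against 59.9% of all genes. It was the lower for 17 without A549-GFP library 2, against 42.6%, and for 5 without A549-TIPARP library 3, against 55.5%. The smallest unadjusted limma p among them was 0.147.

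The snRNP protein genes encode the Sm ring and the particular proteins of U1 and U2. SNRPB was at 881, 519 and 955 TPM in A549-GFP libraries and at 921, 936 and 573 TPM in A549-TIPARP libraries, with 1 low library in each line and a log2 difference of 0.06. It was -0.21 without A549-GFP library 2 and 0.29 without A549-TIPARP library 3, so its direction was not fixed. SNRPA, the U1 protein that binds a loop of U1 snRNA, was at 174, 104 and 204 TPM in A549-GFP libraries and at 184, 186 and 149.8 TPM in A549-TIPARP libraries. Its log2 difference of 0.16 changed sign, to -0.13, without A549-GFP library 2. The lowest difference was that of SNRPG, the smallest Sm protein, at 188, 179 and 179 TPM in A549-GFP libraries and at 179, 179.9 and 121 TPM in A549-TIPARP libraries. A549-TIPARP library 3 was low and the other 5 were nearly equal, and the log2 difference of -0.21 became -0.02 without that library. Of the 12 genes, 8 were lower in A549-TIPARP cells, against 59.9% of all genes. There were 10 without A549-GFP library 2 (median -0.22), against 42.6% of all genes, and without A549-TIPARP library 3, 2 were lower (median 0.11), against 55.5%.

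SNRPN (chromosome 15, 24823637 to 24978723, plus strand) had the highest difference among snRNP genes. It encodes a form of the SNRPB protein best known from brain and lies in an imprinted region, where 1 of the parental copies is silent. It was at 29.0, 35.2 and 29.0 TPM in A549-GFP libraries and at 37.5, 32.8 and 40.2 TPM in A549-TIPARP libraries. Every A549-TIPARP library was above the A549-GFP mean, but A549-GFP library 2 lay above A549-TIPARP library 2. The log2 difference was 0.25 (limma adjusted p = 0.994), and it stayed between 0.18 and 0.34 when any single library was omitted. SNURF is read from the same transcripts, and 70.6% of the 50-base words of SNRPN were found in other genes, 50.5% in SNURF. SNURF was at 57.0, 69.5 and 58.1 TPM in A549-GFP libraries and at 74.6, 65.0 and 79.7 TPM in A549-TIPARP libraries, a log2 difference of 0.25, the same as that of SNRPN. The 2 entries are not independent measurements.

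Among SR proteins the mean was lower in A549-TIPARP cells for 7 of 11 genes, against 59.9% of all genes. The class median of -0.09 was 0.01 without A549-GFP library 1, with 5 lower, and -0.18 without A549-GFP library 3, with 8 lower. It was -0.15 without A549-TIPARP library 1, with 10 lower. In these fits 59%, 68% and 60.5% of all genes were lower. The class median was -0.13 without A549-GFP library 2, with 8 lower against 42.6% of all genes. Without A549-TIPARP library 3 it was -0.01, with 6 lower against 55.5%. Without both libraries it was -0.03, with 7 lower against 36.9%. SRSF9, a short SR protein and the most abundant of them here, was at 342, 264 and 313 TPM in A549-GFP libraries and at 356, 335 and 268 TPM in A549-TIPARP libraries, a log2 difference of 0.06 that was -0.05 without A549-GFP library 2. SRSF4, a long SR protein, had the lowest difference. It was at 72.2, 78.6 and 64.4 TPM in A549-GFP libraries and at 60.1, 66.6 and 50.1 TPM in A549-TIPARP libraries, so that A549-TIPARP library 2 lay just above A549-GFP library 3. The log2 difference was -0.29 (limma adjusted p = 0.994), and -0.11 without both A549-GFP library 2 and A549-TIPARP library 3. SRSF5, an SR protein whose mRNA changes with growth signals in many cells, had the highest difference. It was at 173, 194 and 122 TPM in A549-GFP libraries and at 181, 149 and 197 TPM in A549-TIPARP libraries, a log2 difference of 0.12, and the libraries of the lines were interleaved. When single libraries were omitted it ran from -0.07, without A549-GFP library 3, to 0.26, without A549-GFP library 2.

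SF3A and SF3B are parts of the U2 snRNP that hold the branch point. Of 11 SF3 and U2AF genes, 10 were lower on average in A549-TIPARP cells, against 59.9% of all genes. SF3B6, which contacts the branch point adenosine, was at 308, 404 and 299 TPM in A549-GFP libraries and at 316, 349.5 and 309 TPM in A549-TIPARP libraries, a log2 difference of -0.04 that was 0.10 without A549-GFP library 2. SF3B5, a small subunit of SF3B, was the gene with a higher mean. It was at 219, 188 and 274 TPM in A549-GFP libraries and at 251, 257 and 231 TPM in A549-TIPARP libraries, and its log2 difference of 0.13 became 0.01 without A549-GFP library 2. SF3A1, a scaffold of SF3A, was at 50.5, 58.1 and 40.6 TPM in A549-GFP libraries and at 40.1, 43.2 and 37.3 TPM in A549-TIPARP libraries. The lines overlapped through A549-GFP library 3, and the log2 difference was -0.30, or -0.18 without A549-GFP library 2. In this class A549-TIPARP library 3 was the lowest of its line for all 11 genes, against 62 of all 70 splicing genes and 46.9% of all genes. Without that library 6 of the 11 genes were lower in A549-TIPARP cells, against 55.5% of all genes, with a median of -0.01. Without A549-GFP library 2, 8 were lower (median -0.18), against 42.6% of all genes (median 0.05). Without both libraries 8 were lower (median -0.05), against 36.9% of all genes (median 0.06).

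U2AF1 (chromosome 21, 43092956 to 43107570, minus strand, 8 exons) had the second lowest difference of all 70 genes. It was listed at 19.7, 27.0 and 20.6 TPM in A549-GFP libraries and at 17.2, 20.6 and 12.3 TPM in A549-TIPARP libraries. A549-TIPARP library 2 equalled A549-GFP library 3 to this precision, and the log2 difference was -0.44 (limma adjusted p = 0.994), or -0.10 without both A549-GFP library 2 and A549-TIPARP library 3. Its copy U2AF1L5 was listed higher, at 102, 101 and 94.4 TPM in A549-GFP libraries and at 99.2, 96.8 and 77.2 TPM in A549-TIPARP libraries, a log2 difference of -0.13. Summed, the 2 entries were at 122, 128 and 115 TPM in A549-GFP libraries and at 116, 117 and 89.6 TPM in A549-TIPARP libraries. The sum had a log2 difference of -0.18, smaller than that of the U2AF1 entry alone.

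**Figure D2:**
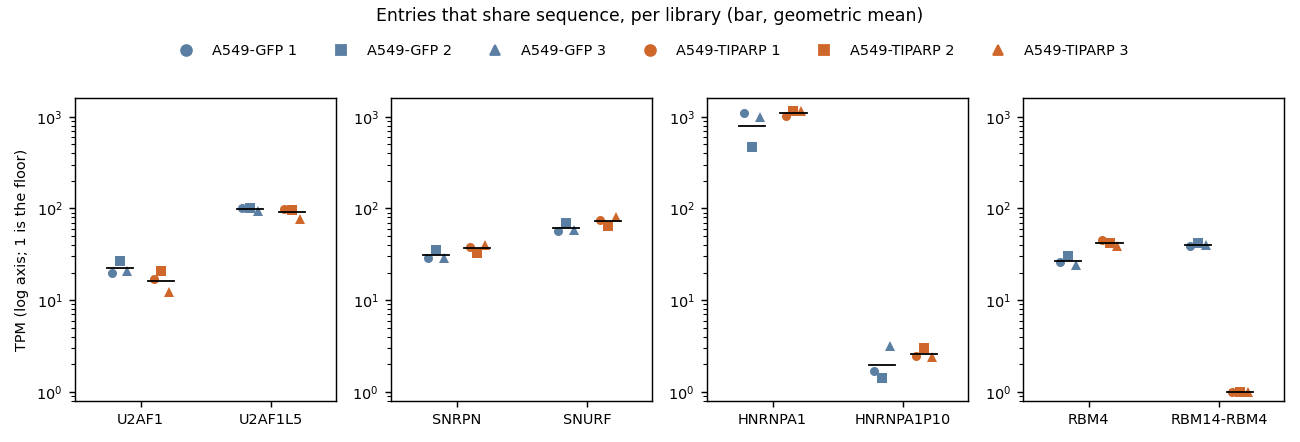
TPM (vertical log axis, floor at 1) of 4 pairs of entries that share sequence, with 1 symbol per library, A549-GFP in blue and A549-TIPARP in orange, and a bar at the geometric mean of each line. U2AF1L5 lies well above U2AF1, SNRPN and SNURF both have A549-TIPARP library 3 on top, and RBM14-RBM4 is at the floor in the 3 A549-TIPARP libraries only.

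Many PRPF genes encode proteins of the U4/U6.U5 tri-snRNP and of the steps around its activation, and some encode U1-associated proteins. Of the 13 PRPF genes, 12 were lower on average in A549-TIPARP cells, against 59.9% of all genes. The class median was -0.22, the lowest of the 5 classes with all 6 libraries. Without A549-GFP library 2 it was -0.14, above that of snRNP protein genes (-0.22) and of SF3 and U2AF genes (-0.18), and without A549-GFP library 3 it was -0.39. PRPF3 (chromosome 1, 150321479 to 150353233, plus strand, 16 exons), a U4/U6 protein, had the lowest difference of all 70 genes. It was at 56.4, 112 and 50.1 TPM in A549-GFP libraries and at 51.8, 49.3 and 43.9 TPM in A549-TIPARP libraries. A549-GFP library 2 stood alone, and the other 5 libraries lay within 43.9 to 56.4 TPM. The log2 difference was -0.50 (1.41-fold lower; limma adjusted p = 0.994), and it was -0.14 without A549-GFP library 2. PRPF8, the large U5 protein at the centre of the spliceosome, was at 116, 173 and 92.6 TPM in A549-GFP libraries and at 99.8, 103 and 88.8 TPM in A549-TIPARP libraries. It too had A549-GFP library 2 on top, and its log2 difference of -0.34 became -0.10 without that library.

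PRPF4 and PRPF38B had the smallest p-values of the 70 genes. PRPF4, which binds PRPF3 in the U4/U6 snRNP, was at 44.4, 43.2 and 36.2 TPM in A549-GFP libraries and at 33.7, 36.5 and 22.9 TPM in A549-TIPARP libraries. A549-TIPARP library 2 lay just above A549-GFP library 3, and the log2 difference was -0.43 (limma unadjusted p = 0.0923, adjusted p = 0.994). PRPF38B, a relative of a tri-snRNP protein, was at 31.8, 38.1 and 23.5 TPM in A549-GFP libraries and at 23.9, 23.9 and 20.2 TPM in A549-TIPARP libraries. Its overlap came from A549-GFP library 3, and the log2 difference was -0.44 (limma unadjusted p = 0.0932, adjusted p = 0.994). After median-ratio scaling, the unadjusted p of PRPF38B was 0.0355 and the adjusted p 0.794. When single libraries were omitted, the log2 difference ran from -0.62 to -0.28 for PRPF38B and from -0.57 to -0.23 for PRPF4.

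The remaining PRPF genes named differed in the order of their libraries. PRPF4B, a kinase of the tri-snRNP, was at 27.7, 32.0 and 17.7 TPM in A549-GFP libraries and at 19.6, 22.0 and 16.7 TPM in A549-TIPARP libraries, a log2 difference of -0.37. PRPF39, a U1-associated protein, was at 25.5, 39.8 and 19.8 TPM in A549-GFP libraries and at 20.9, 23.6 and 19.3 TPM in A549-TIPARP libraries, a log2 difference of -0.36. In both, A549-GFP library 2 was the highest of all 6, and without it the differences were -0.20 and -0.08. PRPF19, a ubiquitin ligase of the activated spliceosome and the most abundant PRPF gene, was highest in A549-GFP library 1, at 193, 158 and 160.1 TPM in A549-GFP libraries and 157, 171 and 115 TPM in A549-TIPARP libraries. Its log2 difference was -0.22, or -0.05 without A549-TIPARP library 3. PRPF40B, a U1-associated protein, was the gene with a higher mean, at 6.28, 9.07 and 6.59 TPM in A549-GFP libraries and 7.09, 8.35 and 7.86 TPM in A549-TIPARP libraries, a log2 difference of 0.10 that ran from 0.0034, without A549-GFP library 1, to 0.27, without A549-GFP library 2. Without both A549-GFP library 2 and A549-TIPARP library 3, the class median was -0.02 and 8 of 13 were lower, against 0.06 and 36.9% for all genes.

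**Figure D3:**
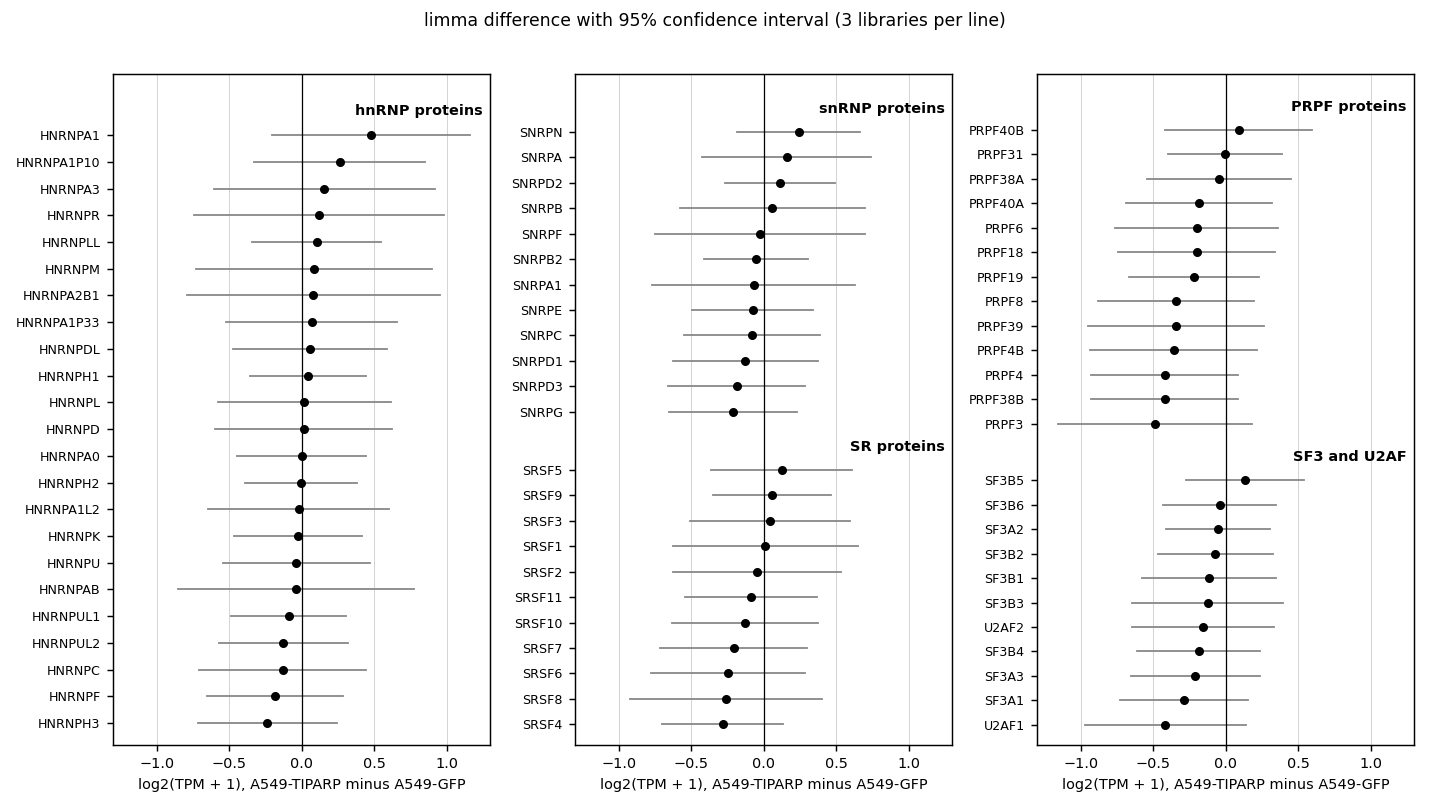
Difference between A549-TIPARP and A549-GFP in log2(TPM + 1), as fitted by limma (points), with its 95% confidence interval (lines), for the 70 splicing genes by class. Every interval crosses 0, and 12 of the 13 PRPF points are left of 0.

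The libraries of each line were unequal in these genes. TPM sets each gene against the whole library, so a share can fall because other transcripts rose. The 70 genes together took 1.32%, 0.94% and 1.16% of the TPM in A549-GFP libraries 1 to 3 and 1.20%, 1.26% and 0.941% in A549-TIPARP libraries 1 to 3. Both A549-GFP library 2 and A549-TIPARP library 3 held less than the others of their line. A549-TIPARP library 3 was the lowest of its line for 62 of the 70 genes, with a median log2 deviation of -0.35 from the other 2 libraries, whereas over all genes that median was -0.05. A549-GFP library 2 was the lowest of its line for 35 genes and the highest for 20, with a median of -0.14. A549-GFP library 1 was the highest of its line for 42 genes, with a median of 0.25, against 27.4% and -0.03 over all genes. A549-GFP library 3 was the lowest for 31, with a median of -0.13, against 54.6% and -0.34 over all genes.

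In A549-GFP library 2 the classes had unlike medians, and genes of 1 class also went both ways. The difference between classes was not tested. Its median deviation from the other 2 libraries of its line was -0.43 on the log2 scale for hnRNP genes and -0.37 for snRNP protein genes. It was 0.02 for SR protein genes, of which 5 were lowest and 5 highest in that library, -0.20 for SF3 and U2AF genes and 0.48 for PRPF genes, and over all genes it was 0.38. HNRNPA2B1, chosen with its values in view, had the lowest mean deviation in the 2 libraries. It was at 915, 326 and 759 TPM in A549-GFP libraries and at 699, 834 and 459 TPM in A549-TIPARP libraries, so A549-GFP library 2 and A549-TIPARP library 3 were the lowest of the 6. Its log2 difference between the lines was 0.08, and -0.37 without A549-GFP library 2, 0.33 without A549-TIPARP library 3 and -0.13 without both.

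**Figure D4:**
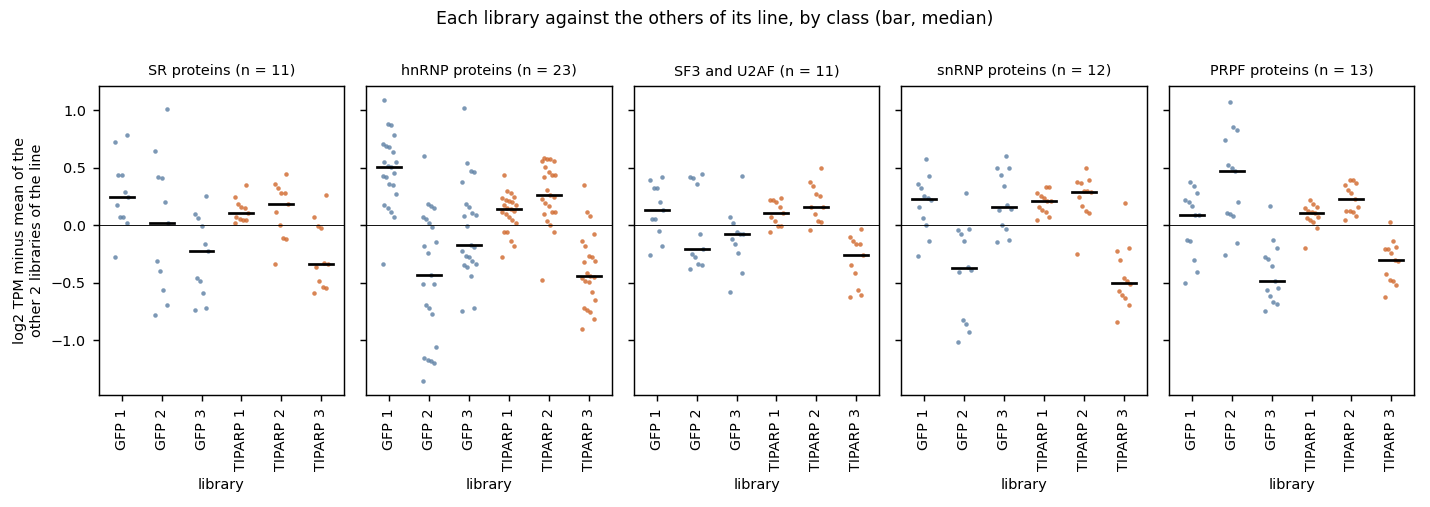
Each gene's log2 TPM in a library minus the mean of the other 2 libraries of its line (vertical axis), for the 5 classes, with a bar at the median. In A549-TIPARP library 3 all 5 medians are below 0, and in A549-GFP library 2 the hnRNP and snRNP medians are below 0 while the PRPF median is 0.48.

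The deviations of A549-GFP library 2 and A549-TIPARP library 3 ran together across genes. Both were negative for 40 of the 70 splicing genes (57.1%), against 22.3% of all genes. Across the 70 genes the correlation of the 2 deviations was r = 0.60 (Spearman's rho = 0.62), the same r as over all 13181 genes. Genes are not independent replicates, all points share the same 6 libraries, and each deviation is set against libraries of its own line only. Transcript GC content and length were nearly unrelated to either deviation across the splicing genes, with r from -0.05 to 0.09. Over the 12289 of all genes with a matched transcript, r with GC content was 0.04 in A549-GFP library 2 and 0.18 in A549-TIPARP library 3. With length it was 0.11 and -0.02. The mean log2 level was more closely related across the splicing genes, with r = -0.50 in A549-GFP library 2 and r = -0.29 in A549-TIPARP library 3, against -0.19 and -0.15 over all genes. The same libraries were low in proliferation markers, 10 genes of DNA replication and mitosis with none at the floor. Their summed level was 2110, 509 and 1631 TPM in A549-GFP libraries and 1540, 1748 and 764 TPM in A549-TIPARP libraries. In bulk RNA, fewer dividing cells and less of these mRNAs per cell cannot be told apart. Their part in the levels of the splicing genes was not tested.

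Genes that work with these factors were counted from 4 short lists. Of 28 analysed genes for other snRNP and minor spliceosome proteins, 19 were lower on average in A549-TIPARP cells, against 59.9% of all genes, with a median log2 difference of -0.10. Without A549-GFP library 2, 25 were lower, against 42.6% of all genes, and without A549-TIPARP library 3, 8 were lower, against 55.5%. SCNM1, a protein of the minor spliceosome, was the lowest, at 12.2, 20.1 and 13.2 TPM in A549-GFP libraries and 11.9, 11.8 and 11.6 TPM in A549-TIPARP libraries. All 3 A549-TIPARP libraries were below all 3 A549-GFP libraries, as in 2 genes of this list (SCNM1 and SNU13) and 3.54% of all genes, with a log2 difference of -0.33 (limma adjusted p = 0.994) that was -0.11 without A549-GFP library 2. In ZCRB1 all 3 were above, as in 5.36% of all genes. The highest difference was that of SNRNP35, also of the minor spliceosome, with a log2 difference of 0.22. Of 33 helicases and partners of the Prp19 complex, 29 were lower, against 59.9% of all genes, with a median of -0.13. The count was 24 without A549-GFP library 2, against 42.6% of all genes, and without both that library and A549-TIPARP library 3, 15 were lower, against 36.9% of all genes. PHF5A, which sits in SF3B at the branch point, was at 93.9, 98.8 and 76.1 TPM in A549-GFP libraries and 69.9, 77.2 and 45.9 TPM in A549-TIPARP libraries. Its log2 difference was -0.50 (limma unadjusted p = 0.0612, adjusted p = 0.994), or -0.28 without A549-TIPARP library 3, and the lines overlapped.

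Of 23 kinases of SR proteins and SR-like cofactors, 20 were lower, against 59.9% of all genes, with a median log2 difference of -0.12. Without A549-GFP library 2, 14 were lower, against 42.6% of all genes, with a median of -0.03 against 0.05 for all genes. Without A549-TIPARP library 3, 14 were lower, against 55.5% of all genes, with a median of -0.03 against -0.04. Without both A549-GFP library 2 and A549-TIPARP library 3, 10 were lower, against 36.9% of all genes, with a median of 0.05 against 0.06 for all genes. CLK4, CLK1 and SRPK1, which phosphorylate SR proteins, had the lowest differences, -0.49, -0.47 and -0.39. CLK1 was at 22.0, 41.2 and 16.1 TPM in A549-GFP libraries and 23.3, 21.9 and 10.8 TPM in A549-TIPARP libraries, and the lines overlapped in all 3 kinases. A549-GFP library 2 was the highest of its line in all 3, and without it the differences were -0.20, -0.09 and -0.27. Without both that library and A549-TIPARP library 3 they were -0.01, 0.26 and -0.15. No gene of these 3 lists had an unadjusted limma p under 0.05. Of 41 other RNA-binding splicing regulators, 20 were lower, against 59.9% of all genes, with a median of 0.00. The count was 25 without A549-GFP library 2, against 42.6% of all genes, and without A549-TIPARP library 3, 14 were lower, against 55.5%. An unadjusted limma p under 0.05 was found for 1 of them, against 3.85% of all genes.

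That gene was RBM4, which represses or includes exons in a context-dependent way. It was at 26.2, 30.1 and 24.4 TPM in A549-GFP libraries and 45.5, 42.2 and 38.9 TPM in A549-TIPARP libraries, every one of them higher. The log2 difference was 0.65 (limma unadjusted p = 0.00718, adjusted p = 0.856). RBM14-RBM4, an entry for transcripts that run from the neighbouring gene RBM14 into RBM4, moved the other way. It was at 38.9, 42.1 and 39.5 TPM in A549-GFP libraries and was listed at the floor in all 3 A549-TIPARP libraries, and it was the gene beside TIPARP with an adjusted p under 0.05 (limma adjusted p = 9.15e-05). The entries share exons. With the floor counted as 1 TPM, the sum of RBM4 and RBM14-RBM4 was 65.1, 72.2 and 64.0 TPM in A549-GFP libraries and 46.5, 43.2 and 39.9 TPM in A549-TIPARP libraries, a log2 difference of -0.64. RBM14 itself had a log2 difference of 0.02. How reads were divided between these entries cannot be seen in the values, so the direction for RBM4 is uncertain.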

How the data were processed

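The authors used Strand NGS to align paired-end reads of stranded mRNA libraries to the human transcriptome of hg38. They deposited, for each of the 6 libraries, the log2 TPM of 53826 entries. The lowest value is 0, taken from the values as standing for any TPM of 1 or less, and no read counts were used here. The software version and the annotation release are not given in the sources used here. The 70 genes and all lists were chosen with earlier results of these data known. As in the study, genes with TPM above 2 in at least 1 library were kept. Fold changes are differences of the mean deposited log2 TPM. limma 3.58.1 in R 4.3.3 was fitted to log2(TPM + 1) of all 13181 genes with a variance trend, no block, and Benjamini-Hochberg adjustment over all of them. The pseudocount of 1 shrinks differences of genes with low TPM. The fit was run on simulated data with 200 changed genes and recovered 89% of them. Those changes were all larger than any difference of a splicing gene, and the noise was independent between libraries. It therefore does not show whether changes of the size seen here would be found. Transcripts, exons and sequences are those of GENCODE 44 on hg38, where 70 of 70 genes were matched. A 50-base word counted as shared when it occurred in a transcript of another gene. The printed stretches are the first 60-base windows, in steps of 30 bases, inside 1 exon in which every copy aligned without gaps and with at most 5 differences. Named genes were any with an adjusted p under 0.05, the 8 highest and 8 lowest differences, the most abundant, highest and lowest of each class, and genes with near-identical copies. For the other lists up to 3 genes in each direction could be named.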

Additional observations from a re-analysis of the deposited data

How the results depend on the processing

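The number of splicing genes with a limma adjusted p under 0.05 was 0 under all 15 alternatives: a pseudocount of 0.1, the 2 scales exchanged, a filter of 2 TPM in 3 or more libraries, every entry above the floor in any library, median-ratio scaling, small RNA entries left out, no variance trend, the replicate block, each of the 6 libraries left out, and both A549-GFP library 2 and A549-TIPARP library 3 left out. The last was chosen after seeing the data. With the replicate block 0 splicing genes and 1 of all genes passed, against 2 of all genes without it, and the smallest unadjusted p of a splicing gene was 0.0747. The sample titles number the experiments 1 to 3 in both lines. Deviations of same-numbered libraries from their line means correlated across genes with r = 0.41, -0.49 and -0.36 in experiments 1, 2 and 3. Not every library correlated best with its own number. Deviations from a line mean sum to 0 within the line, so these correlations are tied to each other. They cannot show whether same-numbered libraries came from 1 shared experiment, and the main fit assumed no pairing. When single libraries were omitted, the number more than 1.5-fold higher ranged from 0 to 2 and the number more than 1.5-fold lower from 0 to 4, and both maxima came without A549-GFP library 3. Without A549-GFP library 1 there was 1 in each direction, against 6.9% of all genes higher and 5.87% lower, and without A549-TIPARP library 2 there was 1 lower, against 3.97%. Without A549-GFP library 3, 6 splicing genes had an unadjusted p under 0.05, with adjusted p = 0.582 (limma), a share of 8.57% against 8.23% of all genes. Without A549-GFP library 1 there was 1 (1.43%, against 3.16%), and after median-ratio scaling 1 (1.43%, against 6.05%). The median of the splicing genes minus that of all genes was 0.0047 with all libraries and ran from -0.20 without A549-GFP library 2 to 0.09 without A549-TIPARP library 3 when single libraries were omitted, with -0.09 without both libraries. The median log2 difference of the splicing genes ranged from -0.17 without A549-TIPARP library 2 to 0.05 without A549-TIPARP library 3, so its sign depended on single libraries. Fewer libraries were fitted in these alternatives, and beyond that the cause was not tested. Without depth, counting error could not be given.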
